A study of Rattus norvegicus with 6 samples.

Results

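Aminoacyl-tRNA synthetases were examined in miR-203 knockout (KO) and wild-type (WT) RUCA-I cells through 36 listed genes, 20 for cytosolic or shared enzymes and 16, with symbols ending in 2, for mitochondrial enzymes. For each symbol the tested row with the longest locus was taken, which gave 35 genes of 26459 tested rows, and Mars2, the mitochondrial methionine enzyme, had no tested row under its symbol. RUCA-I is an epithelial line from an endometrial adenocarcinoma of a Lewis rat. The 3 KO samples are separately made lines of genotype miR-203 -/-, the 3 WT samples are batches of the parent line, and neither group was treated. The deposited table gives 1 pooled FPKM (fragments per kilobase, corrected for library size) per gene and group, so no value for a single sample, no SD and no read depth is known. KO lines and WT batches differ in how they were made as well as in genotype, and these cannot be told apart.

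Each synthetase joins an amino acid to the tRNAs that read its codons, the step that links amino acids to the genetic code. The cytosol and the mitochondrion mostly use enzymes from separate nuclear genes, but Gars (glycine) and Kars (lysine) serve both compartments and Eprs charges glutamate and proline with a single chain. When amino acids run short, the transcription factor ATF4 activates many of the cytosolic genes together with amino acid transporters and asparagine synthetase. Its composite sites, often shared with C/EBP factors, contain the letters TGATGNAA.

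The microRNA that the lines lack is named in the labels without its arm, and the arm commonly meant is shown with its seed, bases 2 to 8, in capitals, as RefSeq lists it.
rno-miR-203a-3p: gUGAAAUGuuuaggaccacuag

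Promoters were searched for TGATGNAA on both strands, in RefSeq windows of 300 bases (250 before and 50 after the start site) on build GRCr8. The match of 6 genes is shown, because the cytosolic genes leaned the same way and these letters are the usual core of ATF4 sites; a match describes the sequence and does not show binding. Each stretch runs along the gene's own strand, the match is in capitals, and it reads TTNCATCA where the motif lies on the opposite strand.
Cars (chr1:208225334-208225363, - strand): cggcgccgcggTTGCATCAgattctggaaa
Iars (chr17:15193658-15193687, - strand): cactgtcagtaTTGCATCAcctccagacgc
Mars (chr7:65023752-65023781, - strand): gcccgttccggTTGCATCAgcgtgggctcc
Nars (chr18:60275778-60275807, - strand): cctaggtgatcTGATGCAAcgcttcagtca
Tars (chr2:62114811-62114840, - strand): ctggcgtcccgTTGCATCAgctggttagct
Yars (chr5:146820190-146820212, + strand): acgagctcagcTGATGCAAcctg

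A window was matched for 32 of the 35 genes by symbol or synonym; Dars, Gars and Rars were not matched. The motif was present in 7 of 17 matched cytosolic promoters (41.2%) and in 0 of 15 mitochondrial promoters, against 3.98% of all 33469 windows. At that share, a set of 15 windows would often hold none. All 6 stretches shown carried the exact letters TTGCATCA or its complement TGATGCAA. Aars, the other gene with a match, is not shown and held both TTGCATCA and TTTCATCA. Counting the start site as base 1, the first base of the motif stood at -27 in Tars, -24 in Iars, -17 in Mars, -14 in Nars, 18 in Cars and 39 in Yars. In Aars it stood farther from the start for TTGCATCA, at -112, and at 10 for TTTCATCA. The 250 bases before the Nars start site show such a match in its setting, close to the start.
Nars (chr18:60275783-60276032, - strand): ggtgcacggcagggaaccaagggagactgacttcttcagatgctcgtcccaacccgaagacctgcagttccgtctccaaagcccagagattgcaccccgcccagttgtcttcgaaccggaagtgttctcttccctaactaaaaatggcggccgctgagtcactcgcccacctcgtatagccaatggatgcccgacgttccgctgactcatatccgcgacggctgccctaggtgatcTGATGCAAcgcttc

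Synthetase mRNA levels leaned lower in KO cells in the cytosolic set and less evenly higher in the mitochondrial set. No single gene passed the authors' test. All 20 cytosolic or shared genes had a lower FPKM in KO than in WT cells, although Kars and Qars turned slightly higher under quantile normalization. Of the 15 mitochondrial genes, 10 were higher and 5 lower in KO cells. The median log2((KO + 1)/(WT + 1)), a difference on the log2 scale with a pseudocount of 1, was -0.17 for the cytosolic set and 0.11 for the mitochondrial set, a difference of -0.28 between the sets. Over the 18090 tested rows that averaged 1 FPKM or more, the median of the same ratio was 0.0046, with quartiles of -0.11 and 0.13; 48.9% were lower and 51.1% higher in KO cells.

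In the authors' deposited table, 0 of the 35 genes had a q under 0.05 in Cuffdiff's test, where 1.05% of all tested rows did. The smallest q of a synthetase in the authors' deposited table was 0.198, for Sars. At an unadjusted p under 0.05, the authors' deposited table held 9 cytosolic genes that were lower in KO cells and none that was higher, against 2.75% and 3.25% of all tested rows. By the same rule 1 mitochondrial gene was higher and none was lower. No tool besides the authors' Cuffdiff could be run on pooled values, and the contrast of the 2 sets was not tested, since genes are not replicates of a condition.

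**Figure D1:**
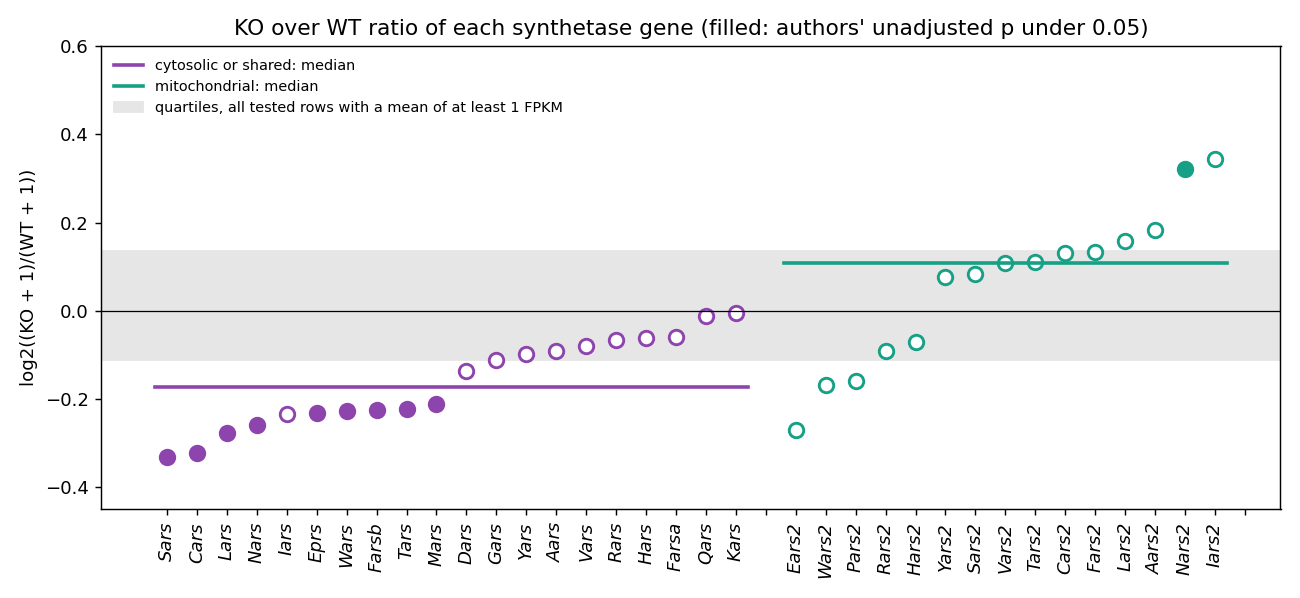
Log2((KO + 1)/(WT + 1)) of each synthetase gene, cytosolic or shared genes at the left and mitochondrial genes at the right, each sorted. Filled points have an unadjusted p under 0.05 in the authors' deposited table, lines are set medians (-0.17 and 0.11), and the grey band holds the middle quartiles of all tested rows averaging 1 FPKM or more; the 20 points of the cytosolic set lie below 0 (Kars and Qars turn slightly higher under quantile normalization) and 10 of 15 mitochondrial points lie above it.

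The sets also differed in level, and the ratio of other rows moved with level. The cytosolic genes ranged from 19.3 to 301 FPKM in KO cells and from 22.4 to 326 FPKM in WT cells, and the mitochondrial genes from 0.690 to 25.8 FPKM in KO cells and from 0.899 to 22.8 FPKM in WT cells. Among the 4890 tested rows within the cytosolic range of mean level, 56.0% were lower in KO cells, with a median log2 ratio of -0.019, and 4.64% were lower with an unadjusted p under 0.05. Among the 14727 rows within the mitochondrial range, 54.1% were higher in KO cells, with a median of 0.018. Their quartiles, -0.11 and 0.16, enclose the median of the mitochondrial set. The cytosolic median lay below the lower quartile of its own background, -0.11. Both backgrounds lean as their sets do, by a smaller amount, and the part of level in the contrast was not tested. The cytosolic FPKM values summed to 1429 in KO and 1582 in WT cells, and the mitochondrial values to 179 in KO and 167 in WT cells. FPKM summed over the series was also higher in KO cells, at 1.04e+06, against 9.28e+05 in WT cells. As a share of that total, the mitochondrial sum was slightly lower in KO cells.

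**Figure D2:**
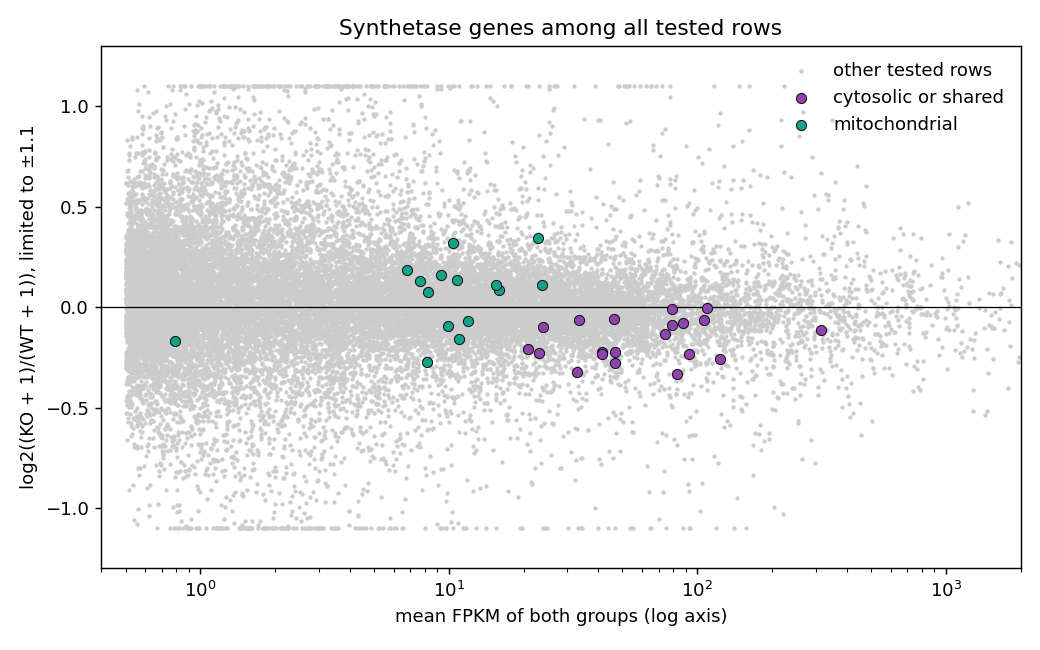
Log2((KO + 1)/(WT + 1)) against the mean FPKM of both groups (log axis) for tested rows in grey and the synthetase genes in colour; grey points beyond the vertical limits are drawn at the edge. The cytosolic genes sit at higher mean level and below 0 (Kars and Qars turn slightly higher under quantile normalization), and most mitochondrial genes sit at lower level and above 0, inside the spread of other rows.

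Among the cytosolic enzymes, the lowest ratios belonged to those for serine, cysteine, leucine and asparagine. Sars, the serine enzyme (rn6 chromosome 2, 211219513 to 211235430), stood at 73.5 FPKM in KO cells, against 92.7 FPKM in WT cells. Its log2 fold change in the authors' deposited table was -0.34 with an unadjusted p of 0.00335 and q = 0.198. Cars, the cysteine enzyme (rn6 chromosome 1, 216771498 to 216801648), stood at 29.0 FPKM in KO and 36.5 FPKM in WT cells, with p = 0.0105 and q = 0.407 in the authors' deposited table. Both were lower in KO cells by more than the lower quartile of all rows, and neither passed the threshold.

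Lars, the leucine enzyme, is also known as a leucine sensor for mTORC1 (rn6 chromosome 18, 36523932 to 36579387). It stood at 42.2 FPKM in KO and 51.3 FPKM in WT cells (q = 0.415, from the authors' deposited table). Nars, the asparagine enzyme whose promoter is printed above (rn6 chromosome 18, 59986325 to 60002589), stood at 112 FPKM in KO and 135 FPKM in WT cells (q = 0.4998, from the authors' deposited table). It uses the amino acid made by asparagine synthetase, described with the amino acid response below.

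A second band of genes lay close together, at log2 ratios between -0.23 and -0.21. Iars, for isoleucine, had 37.9 FPKM in KO and 44.8 FPKM in WT cells. Eprs had 84.99 FPKM in KO and 100 FPKM in WT cells. Wars, for tryptophan, which is also induced by interferon gamma (rn6 chromosome 6, 132770538 to 132802183), had 21.1 FPKM in KO and 24.9 FPKM in WT cells. Farsb, the beta chain of the phenylalanine enzyme, Tars, for threonine, and Mars, for methionine, completed this band. Farsb had 37.9 FPKM in KO and 44.5 FPKM in WT cells, Tars 43.0 FPKM in KO and 50.3 FPKM in WT cells, and Mars 19.3 FPKM in KO and 22.4 FPKM in WT cells. Of these 6 genes, Iars had an unadjusted p of 0.0508 and the others had p from 0.0315 to 0.0469 in the authors' deposited table, with q from 0.733 to 0.833.

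The chains of the phenylalanine enzyme, which form a tetramer of alpha and beta chains, did not show the same ratio. Farsa, the alpha chain that holds the active site, had 45.2 FPKM in KO and 47.2 FPKM in WT cells, a log2 ratio of -0.059, and Farsb had a log2 ratio of -0.22. The difference between the chains was not tested.

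The remaining cytosolic genes differed less between the groups. Gars (rn6 chromosome 4, 85235125 to 85276084) had the highest level of the family, 301 FPKM in KO and 326 FPKM in WT cells (q = 0.997, from the authors' deposited table). Kars (rn6 chromosome 19, 44212085 to 44238418), the other enzyme shared with mitochondria, had 109 FPKM in KO and 109.8 FPKM in WT cells (q = 0.997, from the authors' deposited table). The shared enzymes thus had log2 ratios of -0.11 and -0.0048, above the cytosolic median.

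Qars, for glutamine, had 79.0 FPKM in KO and 79.6 FPKM in WT cells, and Rars, for arginine, 104 FPKM in KO and 109 FPKM in WT cells. Both belong to the multisynthetase complex, as does Dars, for aspartate, with 70.7 FPKM in KO and 77.7 FPKM in WT cells. Vars, for valine, had 84.99 FPKM in KO and 89.8 FPKM in WT cells, Aars, for alanine, 76.4 FPKM in KO and 81.5 FPKM in WT cells, and Hars, for histidine, 32.7 FPKM in KO and 34.2 FPKM in WT cells. Yars, the tyrosine enzyme, which is also secreted and split into cytokine fragments, had 23.2 FPKM in KO and 24.9 FPKM in WT cells (rn6 chromosome 5, 147375305 to 147423175). All 9 genes of this paragraph and the preceding one had unadjusted p above 0.2 in the authors' deposited table.

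**Figure D3:**
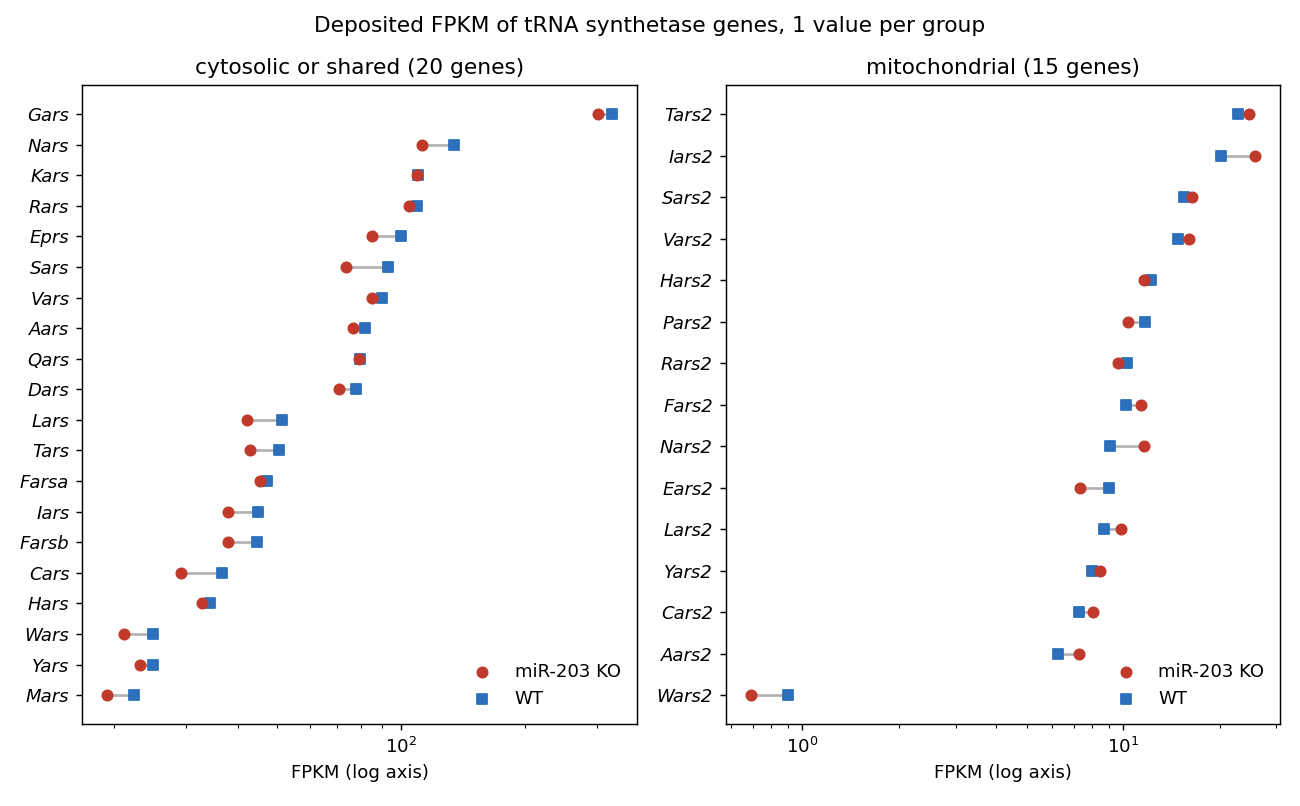
Deposited FPKM of each gene (log axis), miR-203 KO as circles and WT as squares, with 1 pooled value per group and no error bar. In the left panel the circles of the 20 cytosolic or shared genes lie left of or on their squares (Kars and Qars turn slightly higher in KO under quantile normalization); in the right panel they lie to the right for 10 of 15 mitochondrial genes.

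In order of level in WT cells, Gars, Nars and Kars were the highest cytosolic genes and Mars, Yars and Wars the lowest. Gars, Nars and Kars were also the highest in KO cells. With no spread between samples, it cannot be said which neighbours in this order differ. Wars and Yars, for example, were both at 24.9 FPKM in WT cells.

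Known features of the enzymes divided the cytosolic set unequally. The 12 genes reported as ATF4-responsive in mouse and human cells (Aars, Cars, Eprs, Gars, Iars, Lars, Mars, Nars, Sars, Tars, Wars and Yars) had a median log2 ratio of -0.23, and the other 8 had a median of -0.064. At an unadjusted p under 0.05 in the authors' deposited table, 8 of the 12 and 1 of the 8, Farsb, were lower in KO cells. The same held for 2.75% of all tested rows and 4.64% of tested rows within the cytosolic range of mean level. This split was chosen with earlier results of these data known, so it is not independent evidence. None of these synthetases passed q under 0.05 in the authors' deposited table, and the medians were not tested against each other. Median levels were 42.6 FPKM in KO and 50.8 FPKM in WT cells for the 12 genes, and 74.8 FPKM in KO and 78.7 FPKM in WT cells for the 8.

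Divided by the motif, the medians lay closer together than by the ATF4-responsive list, and neither split was tested. The 7 cytosolic genes with a match had a median log2 ratio of -0.22, from -0.32 in Cars to -0.091 in Aars, and the 10 without a match had a median of -0.15, from -0.33 in Sars to -0.0048 in Kars. Within the ATF4-responsive list, the 4 matched promoters without the letters (Eprs, Lars, Sars and Wars) had a median of -0.25. None of the 6 matched promoters outside that list held the motif. With 3.98% of all windows holding it, so small a set would mostly hold none.

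Membership of the multisynthetase complex, a large assembly that holds 8 of these enzymes, left the medians equal to 2 decimals. Its 8 enzymes (Dars, Eprs, Iars, Kars, Lars, Mars, Qars and Rars) had a median log2 ratio of -0.17, and the 12 outside it also had a median of -0.17. By structural class of the catalytic domain, the medians were -0.21 over 9 class I and -0.12 over 10 class II enzymes, a difference that was not tested. Eprs, which carries a domain of each class, was left out of that split.

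Among the mitochondrial enzymes, those for isoleucine and asparagine had the highest ratios on the rows used, while another Cars2 row of the same span as the row used stood at 1.25. Iars2 (rn6 chromosome 13, 103171282 to 103245528) had 25.8 FPKM in KO cells, against 20.1 FPKM in WT cells, where the authors' deposited table gave a log2 fold change of 0.36, p = 0.142 and q = 0.997. Nars2 (rn6 chromosome 1, 161922192 to 162035812) had 11.6 FPKM in KO and 9.12 FPKM in WT cells, where the authors' deposited table gave a log2 fold change of 0.35, p = 0.0457 and q = 0.814. Nars2 was the mitochondrial gene at an unadjusted p under 0.05, where 3.25% of all tested rows were higher.

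Smaller positive ratios were listed for 8 further mitochondrial genes. Aars2, for alanine, had 7.27 FPKM in KO and 6.28 FPKM in WT cells, and Lars2, for leucine, 9.85 FPKM in KO and 8.72 FPKM in WT cells. Fars2, which charges phenylalanine as a single chain in mitochondria, had 11.3 FPKM in KO and 10.2 FPKM in WT cells, and Cars2, for cysteine, 8.06 FPKM in KO and 7.27 FPKM in WT cells. Tars2, Vars2, Sars2 and Yars2, for threonine, valine, serine and tyrosine, had log2 ratios from 0.077 to 0.11. These 8 genes had unadjusted p of at least 0.173 in the authors' deposited table.

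Tars2 and Iars2 had the highest mitochondrial levels in WT cells and Wars2 the lowest. Tars2 had 24.6 FPKM in KO and 22.8 FPKM in WT cells, Vars2 16.05 FPKM in KO and 14.8 FPKM in WT cells, Sars2 16.4 FPKM in KO and 15.4 FPKM in WT cells, and Yars2 8.48 FPKM in KO and 7.98 FPKM in WT cells. Iars2 was above Tars2 in KO cells and below it in WT cells. Several mitochondrial genes share their listed span with rows of other genes, which were Naxd for Cars2, Rab3gap2 for Iars2, Mrps12 for Sars2 and Dnm1l for Yars2. Some cytosolic genes do so as well, with Terf2ip for Kars, Ddit3 for Mars, and RGD1561149 and unnamed rows for Yars. The sources used here do not say how reads were divided in these spans.

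The 5 mitochondrial genes that were lower in KO cells had log2 ratios from -0.27 to -0.071. Ears2, for glutamate, had 7.32 FPKM in KO and 9.04 FPKM in WT cells. Its log2 fold change in the authors' deposited table, -0.028, differs from the ratio of these values, so the size of its difference is uncertain. Pars2, for proline, had 10.4 FPKM in KO and 11.7 FPKM in WT cells, Rars2, for arginine, 9.61 FPKM in KO and 10.3 FPKM in WT cells, and Hars2, for histidine, 11.6 FPKM in KO and 12.2 FPKM in WT cells. Wars2, for tryptophan, had the lowest level of the family, at 0.690 FPKM in KO and 0.899 FPKM in WT cells. All 5 had an unadjusted p above 0.16 in the authors' deposited table. The mitochondrial class I and class II enzymes had medians of 0.093 over 8 and 0.11 over 7 genes.

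Enzymes for the same amino acid were then set side by side, in 16 pairs of 30 genes, with Eprs and Fars2 each entering more than 1 pair. The cytosolic gene had the higher FPKM in 16 of 16 pairs in both groups. With a pseudocount of 1 its log2 ratio was below that of its mitochondrial partner in 13 pairs, and in 12 to 15 pairs under 7 other settings. In 11 pairs the cytosolic gene was lower and the mitochondrial gene higher in KO cells. The widest differences between partners, cytosolic minus mitochondrial, were -0.58 for Nars and Nars2 and -0.58 for Iars and Iars2. They were followed by -0.45 for Cars and Cars2, -0.44 for Lars and Lars2 and -0.42 for Sars and Sars2. With the Cars2 row of highest mean in place of the row used, the Cars and Cars2 difference would be the widest, at -1.57. The FPKM of Nars was 9.66 times that of Nars2 in KO cells and 14.8 times in WT cells, and that of Iars was 1.47 times that of Iars2 in KO cells and 2.23 times in WT cells. None of these differences was tested.

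With a pseudocount of 1, the mitochondrial gene had the lower log2 ratio in the pairs for histidine, arginine and glutamate, by at most 0.039. Without a pseudocount, in the authors' deposited table, Wars2 at -0.38 lay below Wars at -0.24, while Ears2 at -0.028 lay above Eprs at -0.23. Hars and Hars2 lie head to head, 89 bp apart on chromosome 18 in the authors' listed spans, and had nearly the same log2 ratio, -0.062 for Hars and -0.071 for Hars2. Iars2 and Eprs lie 55.3 kb apart on chromosome 13 and had ratios of 0.34 and -0.23.

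**Figure D4:**
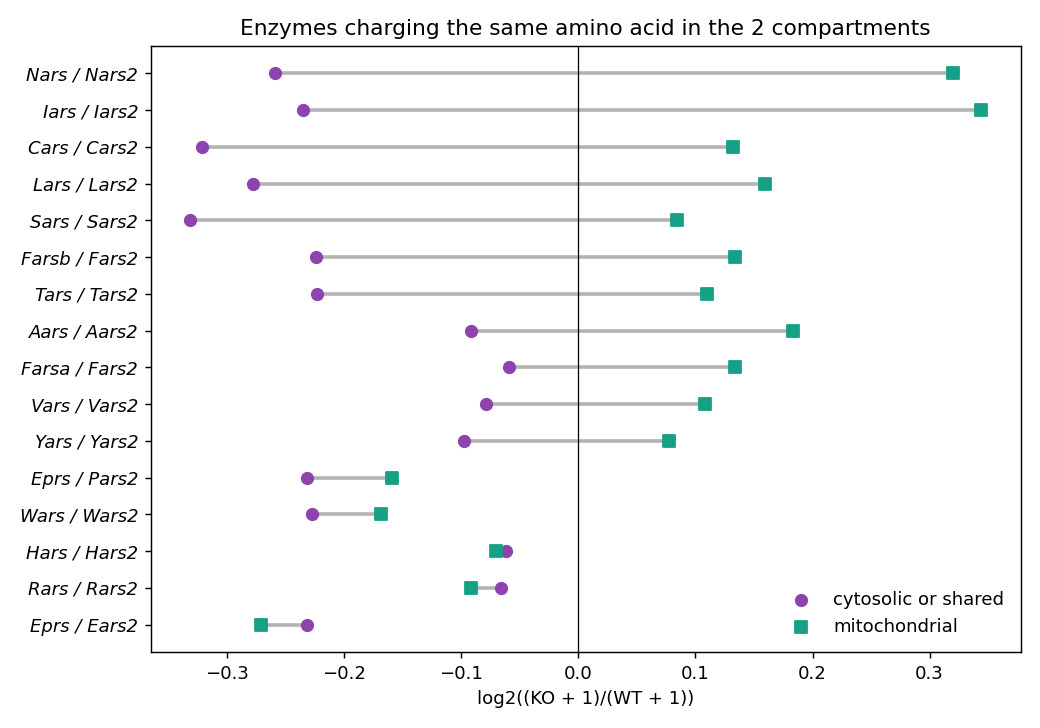
Log2((KO + 1)/(WT + 1)) of the cytosolic or shared gene (circle) and the mitochondrial gene (square) for each amino acid, joined by a line and sorted by their difference. In 11 of the 16 pairs the marks lie on opposite sides of 0, with the cytosolic gene below it.

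Around the enzymes, further lists of tRNA charging genes held no call. The scaffold proteins of the multisynthetase complex were lower in KO cells in 3 of 3 cases without passing. Aimp1 had 58.7 FPKM in KO and 66.5 FPKM in WT cells, Aimp2 24.6 FPKM in KO and 24.7 FPKM in WT cells, and Eef1e1 22.2 FPKM in KO and 25.8 FPKM in WT cells, with q from 0.941 to 0.997 in the authors' deposited table. Their median log2 ratio, -0.18, was close to that of the cytosolic enzymes.

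Mitochondrial charging by other routes showed no common direction, with 2 of 5 genes higher and 3 lower. Mitochondria make their glutaminyl-tRNA from glutamyl-tRNA with an amidotransferase of Qrsl1, Gatb and Gatc. Qrsl1 had 5.93 FPKM in KO and 5.97 FPKM in WT cells, Gatb 6.22 FPKM in KO and 7.20 FPKM in WT cells, and Gatc 10.2 FPKM in KO and 9.68 FPKM in WT cells (each q = 0.997, from the authors' deposited table).

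For editing and proofreading, 2 of 6 genes were lower and 4 higher. For tRNA maturation and export 4 of 5 were lower, for cytosolic elongation 4 of 4 measured, for mitochondrial translation factors 4 of 8 and for the selenocysteine route 0 of 2. None of these 25 genes passed q under 0.05 in the authors' deposited table. Xpot, which exports tRNAs from the nucleus, had 34.8 FPKM in KO and 39.4 FPKM in WT cells without passing.

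Unlike the synthetases, the genes of the amino acid response included calls. Of 20 listed genes 18 were measured, of which 4 fell, 1 rose and 13 did not pass, against 0.556% of all tested rows called lower and 0.491% called higher. Their median log2 ratio was -0.25, and 17 of them were lower in KO cells by FPKM. Eif2ak4, counted as lower at a log2 ratio of -0.029, had a log2 fold change of 0.53 in the authors' deposited table. Its direction is therefore uncertain. Part of this list was known from earlier results of these data, so its direction is not independent evidence.

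The decreases were of enzymes, a stress regulator and a transporter. Asns, asparagine synthetase (rn6 chromosome 4), fell to 15.9 FPKM in KO cells, against 28.4 FPKM in WT cells (q = 0.00756, from the authors' deposited table). Chac1, which degrades glutathione, fell to 22.3 FPKM in KO cells, against 35.2 FPKM in WT cells, and Sesn2, an inhibitor of mTORC1, to 7.58 FPKM in KO cells, against 12.8 FPKM in WT cells (both q = 0.00756, from the authors' deposited table). Slc7a1, a carrier of arginine and lysine, fell to 39.2 FPKM in KO cells, against 51.0 FPKM in WT cells (q = 0.0395, from the authors' deposited table). With a pseudocount of 1, the log2 ratios of these 4 genes, from -0.80 to -0.37, lay below that of every synthetase on the rows used. Another Cars2 row of the same span stood at -0.43. Without a pseudocount, in the authors' deposited table, Wars2 at -0.382 lay below Slc7a1 at -0.380.

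Cebpb, a C/EBP factor, was the increase, at 14.7 FPKM in KO and 10.6 FPKM in WT cells (q = 0.00756, from the authors' deposited table). Atf4 itself had 213 FPKM in KO and 248 FPKM in WT cells, with p = 0.0494 and q = 0.829 in the authors' deposited table, and did not pass. ATF4 is controlled mainly by translation of its mRNA, which these data do not measure. Ddit3, another member, is listed with the same span as Mars, at 0.366 FPKM in KO and 0.428 FPKM in WT cells, so how reads were divided between them bears on both values and was not tested.

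**Figure D5:**
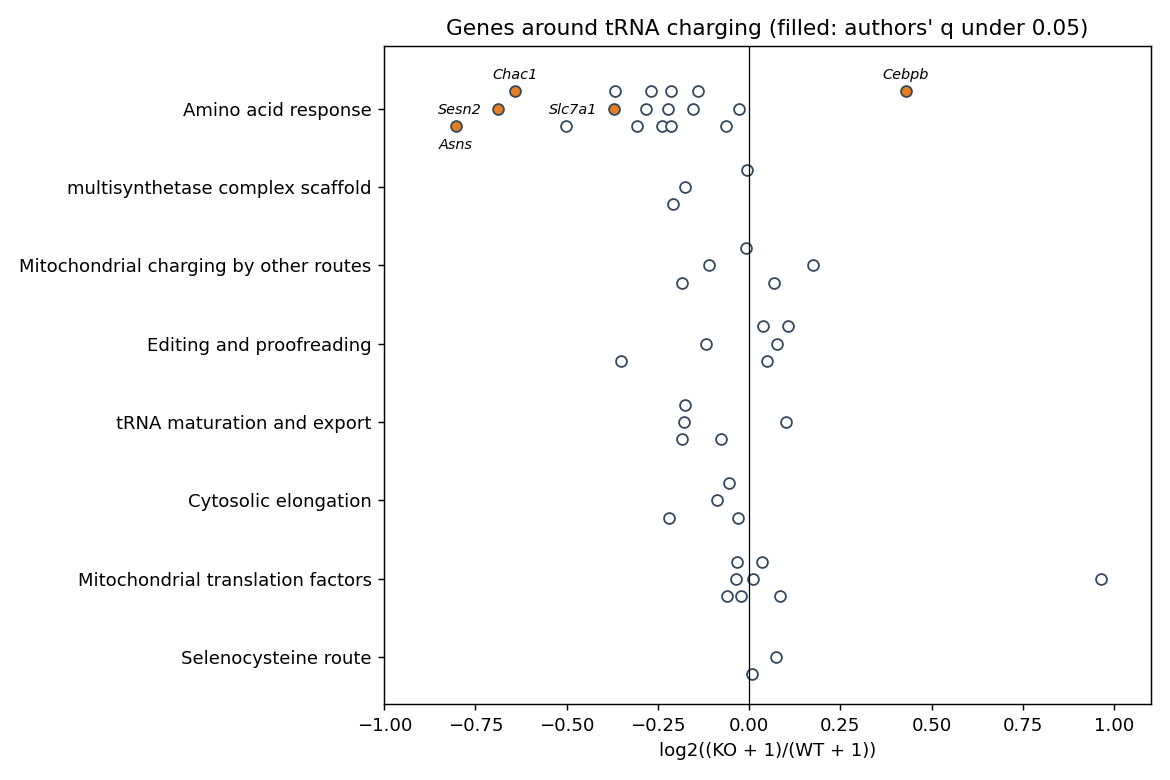
Log2((KO + 1)/(WT + 1)) of genes around tRNA charging, by list, with 1 point per gene spread vertically for legibility. Filled points, all in the amino acid response list, have q under 0.05 in the authors' deposited table, with Asns, Chac1, Sesn2 and Slc7a1 below 0 and Cebpb above it.

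The epithelial label of the cells was checked against markers. Cdh1, Epcam, Krt7, Krt8, Krt18 and Cldn4 had 79.2 to 419 FPKM in KO and 75.8 to 501 FPKM in WT cells. Pax8, of uterine epithelium, had 71.5 FPKM in KO and 75.4 FPKM in WT cells and Esr1 8.32 FPKM in KO and 7.58 FPKM in WT cells, while Krt19, Pgr, Hoxa10 and Hoxa11 had no tested row under their symbols. Of 15 markers of leukocytes, fibroblasts, endothelium and muscle, 4 had a tested row. The leukocyte markers Cd79a and Csf1r summed to 24.1 FPKM in KO and 32.5 FPKM in WT cells. Csf1r fell to 0.200 FPKM in KO cells, against 0.791 FPKM in WT cells, and the authors' deposited table gives q = 0.0187. Cd79a had 23.9 FPKM in KO and 31.7 FPKM in WT cells, and did not pass at p = 0.00785 and q = 0.346 in the authors' deposited table. Col1a1 had 1.17 FPKM in KO and 1.43 FPKM in WT cells, Myh11 had 2.80 FPKM in KO and 1.20 FPKM in WT cells, and Ptprc and Pecam1 had no tested row. The part of these markers in the synthetase values was not tested.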

How the data were processed

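Total RNA of 3 miR-203 KO and 3 WT samples was made into stranded libraries by the dUTP method, per the labels' protocols. TopHat (version 0.9 as listed), Cufflinks 2.2.1, Cuffdiff 2.2.1.3 and the build rn6 are named in the submitters' processing notes, while the sources used here name neither annotation nor settings. The authors deposited 1 FPKM per gene row and group, a log2 fold change, a test statistic (a score), a p-value and a q-value, per the file headers. FPKM keeps no read depth, so precision per gene is unknown.

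Decimal commas were read as points. Of 26751 rows, 26459 had been tested. Where several rows of a symbol shared the longest span, the row listed first was taken; 7 genes had several rows and 5 had rows of the same span. Spans are as the authors list them and can cover several genes. Ratios were log2((KO + 1)/(WT + 1)). The design had foreseen limma for values of single samples. The table has none, so a call is the authors' q under 0.05. Recomputed Benjamini-Hochberg values matched the authors' q. RefSeq promoters were matched by symbol, then synonym.

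The members, gene lists and splits were chosen with earlier results of these data known. Named genes follow a rule (calls, extreme ratios and levels, widest pairs, fixed symbols); every other synthetase is given as well, and Xpot and Ddit3 were named after their values were seen. Some items that enter the counts are not reported here. The calculation was tested on simulated data. Python 3.11.15, pandas 2.3.3, NumPy 2.4.6 and matplotlib 3.10.9 were used.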

Additional observations from a re-analysis of the deposited data

How the results depend on the processing

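The median of the cytosolic set lay between -0.18 and -0.15 and that of the mitochondrial set between 0.087 and 0.11 under all 10 alternatives (pseudocounts, the authors' fold column, another row per symbol, centring, quantile normalization, minimum levels, rows with 1 symbol, and, added after seeing the data, leaving out Ears2 for its mismatched fold). The difference of the medians lay between -0.29 and -0.24. Between 18 and 20 cytosolic genes were lower, and the exceptions, under quantile normalization, were Kars at 0.010 and Qars at 0.0030. With a minimum mean of 10 FPKM, which leaves 8 mitochondrial genes, 6 were higher. The count of called synthetases was 0 under all 5 alternatives, and the smallest q, for Sars, was 0.155 and 0.151 when recomputed over rows averaging 1 FPKM and 5 FPKM or more. Of 150 ratios of single genes under alternatives, 140 stayed within 1.5 times, 8 moved further and 2 reversed. The count of pairs with the lower cytosolic ratio, added after seeing the data, was 12 to 15 of 16 under 7 alternatives. Wars2 depends on the pseudocount, from -0.38 without one to -0.052 with 5. No paired analysis was possible because values of single samples are not in the table; leaving out replicates was not run for the same reason.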

Other observations

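Some synthetase symbols are listed on several rows, and for Cars2 the row matters. It has 7 rows of the same span. The row used here had 8.06 FPKM in KO and 7.27 FPKM in WT cells, and the row with the highest mean had 29.8 FPKM in KO and 11.9 FPKM in WT cells, a log2 ratio of 1.25 with p = 0.538 in the authors' deposited table. A further Cars2 row leaned the other way, with 9.48 FPKM in KO and 13.1 FPKM in WT cells. For Farsb, Lars2, Rars2 and Sars2 the additional rows of the same span had at most 4.06 FPKM in either group. A short Ears2 row had 1.04 FPKM in KO and 0.298 FPKM in WT cells without passing, while the row used was lower in KO cells.

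Outside the synthetases, Mrrf, which recycles mitochondrial ribosomes, had the widest ratio of the mitochondrial translation factors, at 164 FPKM in KO and 83.4 FPKM in WT cells, with p = 0.117 and q = 0.970 in the authors' deposited table. Tsfm, at 523 FPKM in KO and 531 FPKM in WT cells, is listed on a row shared with LOC679247.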
